A study of Mus musculus with 36 samples.

Results

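DNase I hypersensitivity of the Ikaros line was compared with that of the control line at 18 h, in 6 of the 36 libraries of the series: Ikaros replicates 4, 5 and 6 against control replicates 4, 5 and 6, over all 52788 DNase I hypersensitive sites (DHS) of the table. Members were chosen by column label and not by any measured value. All cells were B3, a mouse pre-B lymphocyte line used as a model of the pre-BI stage. The Ikaros line carried a retroviral vector with HA-tagged wild type Ikaros fused to ERt2, the hormone-binding domain of the estrogen receptor, followed by an IRES and GFP. The control line carried ERt2, IRES and GFP without Ikaros, so both lines shared the hormone-binding domain, the reporter and the drug, 4-hydroxytamoxifen at 0.5 µM. Per the study's methods each line was a population sorted for GFP, not a clone, and the drug was added 18 h before these cells were collected. The time field of the labels also gives 18 h, whereas their treatment text has the drug added 2 h before collection for every sample, and the hour used here is that of the time field. The replicate numbers belonged to batches 11, 12 and 13, each harvested together, so batch was crossed with line. No line free of vector was compared here, so vector insertion and the fusion protein cannot be told apart from Ikaros activity.

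Ikaros, encoded by Ikzf1, is a zinc finger transcription factor needed for lymphocyte development, and its loss is common in precursor B cell leukaemia. It binds DNA through a short core with the letters TGGGAA and recruits the nucleosome remodelling complex NuRD, and it is known both to close and to open regulatory elements in pre-B cells, where it restrains growth, glucose use and the cell cycle. DNase I cuts DNA that nucleosomes leave exposed, so a higher read density over a promoter or enhancer marks a more accessible element.

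The deposited values were log2 normalised read densities after the authors' noise correction. The 6 library medians lay between 3.97 and 4.03, and Pearson correlations across DHS were 0.834 to 0.845 within Ikaros, 0.769 to 0.788 within control and 0.726 to 0.787 between the lines. The spread of values over DHS was narrower in the Ikaros libraries (SD 0.645 to 0.761) than in the control libraries (SD 0.899 to 0.962). Promoter DHS, defined here as DHS within 1000 bp of a transcription start site, were present for 8 of 10 pre-B cell marker genes, with a median value of 4.93 in Ikaros and 5.34 in control. They were present for 3 of 11 T cell markers, for 2 of 12 myeloid and erythroid markers and for 0 of 5 genes chosen as inaccessible. At 18 h none of the 9 pre-B cell, 3 T cell or 2 myeloid and erythroid marker promoter DHS passed the test. Of all promoter DHS 0.425% passed, so sets this small say little about calls.

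At 18 h, 369 of the 52788 DHS differed between the lines (0.699%, limma, Benjamini-Hochberg adjusted p under 0.05), 264 of them more accessible in Ikaros (0.5% of all DHS) and 105 less accessible (0.199%). The test took the noise-corrected values as independent libraries. How far the authors' correction alters the spread within groups, and with it the SEs and p-values given here, was not tested. The DHS that were higher had a median of 4.06 in Ikaros and 2.67 in control, and their differences ran from 0.63 to 3.93 on the log2 scale. DHS that were lower had a median of 4.55 in Ikaros and 5.43 in control, with differences between -0.51 and -1.78. Thus at 18 h the higher DHS were weak sites in the control line and of middling strength in Ikaros, whereas the lower DHS were strong sites in the control line. These levels follow in part from calling the DHS on the same values. At the other times the control medians were 2.98 to 3.49 for the higher DHS and 5.07 to 5.29 for the lower DHS. In 263 of the 264 and in all 105 the 3 values of each line did not overlap, against 23.2% of all DHS, and the batch differences had the same sign in batches 11, 12 and 13 for all 264 and all 105. The DHS were called from these same values, so both tallies follow largely from that choice and are descriptions. The median batch differences of the higher DHS were 1.44, 1.21 and 1.25, and those of the lower DHS were -0.84, -0.95 and -0.96. The count rested on sharing the spread over all 36 libraries, since 29 DHS passed when only the 6 libraries at 18 h were fitted and 1 when the replicate block was added to that fit. Fits without Ikaros replicate 4, 5 or 6 gave 61, 91 and 88 calls, of which 61, 90 and 86 were among the 369. Fits without control replicate 4 or 6 gave 197 and 213, with 151 and 161 among the 369. All 369 estimates kept their sign in each of these fits. Where groups do not overlap, leaving out a library cannot turn the sign, so this too is a description.

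The difference moved with the level of a DHS. With the DHS put in 4 equal bins of 13197 by mean level over all libraries, the median difference was 0.30 in the lowest bin, 0.08 and -0.04 in the next and -0.13 in the highest. The lowest bin held 134 of the 264 higher DHS and 0 of the 105 lower DHS, and the highest bin held 19 and 88. With trends against level, GC content and width removed, 199 DHS passed, 143 higher and 56 lower, and 141 of the original 369 were among them. With the lowest bin left out of the test, 120 higher and 95 lower DHS passed. The narrower value range of the Ikaros libraries moves with this pattern, and its part in the calls beyond these alternatives was not tested.

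**Figure D1:**
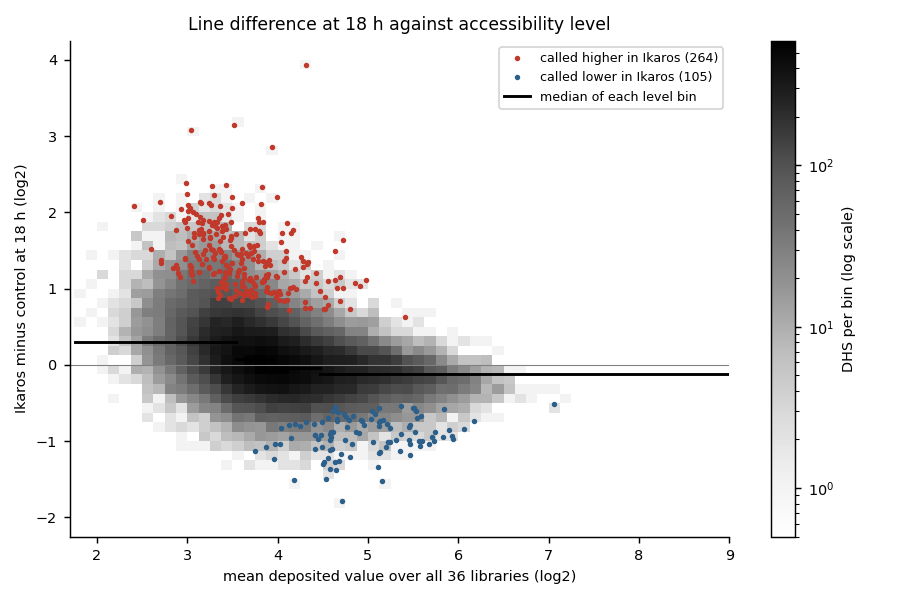
Difference between Ikaros and control at 18 h (vertical axis, log2) against the mean value over all 36 libraries (horizontal axis, log2), with grey bins coloured by the number of DHS on a log scale, black lines for the median of each level bin, red points for the 264 DHS called higher and blue points for the 105 called lower; 5 DHS lie outside the axes. The medians fall from 0.30 in the lowest bin to -0.13 in the highest, and the red points sit mostly at low levels and the blue points at high levels.

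The largest differences were at Ikzf1 itself. Of the 14 DHS that overlap the gene on chromosome 11, 6 lie over exons and 8 in introns. All 6 exon DHS were more accessible in Ikaros, by 1.65 to 3.93, and none of the 8 intron DHS passed, with differences between -0.34 and 0.71. Each of the 6 exon DHS covers coding bases of Ikzf1 and none of the intron DHS does. The retroviral vector of the Ikaros line holds the same coding bases. Reads from the vector and from the gene cannot be told apart in these values. The sequences of the 3 exon DHS with the largest differences are shown for the coding bases they hold, which are in capitals; exon DHS 2 and 4 show coding exon and intron side by side, and the stretch of exon DHS 6 is coding throughout (GRCm38, the build also called mm10, plus strand, from RefSeq's assembly):
Ikzf1 exon DHS 2, chr11:11748289-11748588: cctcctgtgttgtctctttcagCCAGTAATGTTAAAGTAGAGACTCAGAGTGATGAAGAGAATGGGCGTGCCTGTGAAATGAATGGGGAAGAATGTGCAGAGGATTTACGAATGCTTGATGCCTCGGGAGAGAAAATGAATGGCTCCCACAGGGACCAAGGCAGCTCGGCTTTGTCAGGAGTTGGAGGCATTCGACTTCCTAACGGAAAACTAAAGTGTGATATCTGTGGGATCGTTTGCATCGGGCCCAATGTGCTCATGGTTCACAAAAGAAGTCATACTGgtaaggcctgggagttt
Ikzf1 exon DHS 4, chr11:11758180-11758336: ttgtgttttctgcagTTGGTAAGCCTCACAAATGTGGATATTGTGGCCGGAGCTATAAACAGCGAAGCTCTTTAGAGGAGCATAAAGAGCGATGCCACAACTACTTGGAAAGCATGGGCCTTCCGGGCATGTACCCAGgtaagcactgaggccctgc
Ikzf1 exon DHS 6, chr11:11768983-11769282: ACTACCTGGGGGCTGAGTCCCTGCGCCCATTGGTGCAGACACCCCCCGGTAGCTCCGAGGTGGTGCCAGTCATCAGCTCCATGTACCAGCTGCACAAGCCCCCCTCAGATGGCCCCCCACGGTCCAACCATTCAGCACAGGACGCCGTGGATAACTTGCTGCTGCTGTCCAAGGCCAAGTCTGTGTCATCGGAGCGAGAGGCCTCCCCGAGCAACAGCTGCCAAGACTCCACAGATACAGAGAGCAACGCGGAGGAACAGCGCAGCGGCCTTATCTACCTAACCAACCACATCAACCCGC
In exon DHS 4 the whole stretch of 157 bases holds 123 coding bases, with only short intron ends on either side, and in exon DHS 2 the printed 300 bases hold the whole coding exon of 261 bases.

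Exon DHS 6, at chr11:11768688-11769688 in the 3′ part of Ikzf1, stood at 6.20, 6.46 and 6.25 in Ikaros and at 2.59, 2.26 and 2.27 in control, a difference of 3.93 ± 0.32 (SE; limma, adjusted p = 2.11e-08). Exon DHS 4, at chr11:11758180-11758336, stood at 5.30, 5.01 and 4.20 in Ikaros and 1.76, 2.10 and 1.20 in control (3.15 ± 0.55, adjusted p = 0.00427). Exon DHS 2, at chr11:11748163-11748716, stood at 5.53, 5.65 and 4.87 against 2.75, 1.97 and 2.76 (2.86 ± 0.27, adjusted p = 2.66e-07). No exon DHS had an overlap between the lines, and their control means, 1.69 to 2.49, lay below the 2.79 to 5.39 of the intron DHS. Intron DHS 8, at chr11:11766209-11766368 between exon DHS 5 and 6, stood at 6.04, 5.62 and 6.01 in Ikaros and at 5.50, 5.43 and 5.25 in control, and its difference of 0.50 ± 0.26 did not pass (adjusted p = 0.415). The exon differences were there before the drug was given, at 1.68 to 3.61 at 0 h. The calls of exon DHS 1 (1.65) and exon DHS 5 (1.77) were the weakest: the former had an adjusted p of 0.0641 with the replicate block, and both calls were lost with trends removed (adjusted p = 0.112 and 0.116, limma).

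**Figure D2:**
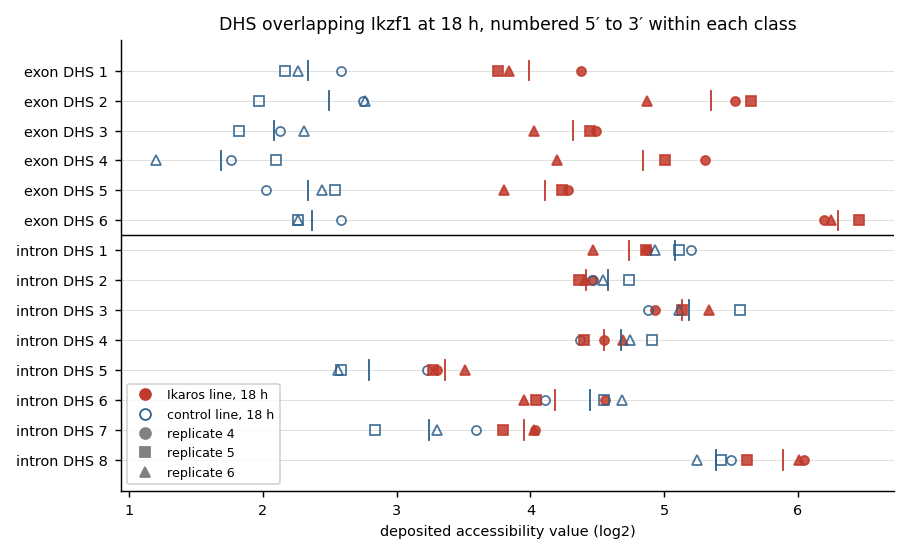
Deposited value (horizontal axis, log2) of each 18 h library at the 14 DHS that overlap Ikzf1, with filled red symbols for Ikaros, open blue symbols for control, symbol shape for the replicate and vertical bars for the mean of 3. The lines are far apart at the 6 exon DHS, where differences were 1.65 to 3.93, and close or overlapping at the 8 intron DHS.

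Of the 12 largest positive differences 4 were Ikzf1 exon DHS, and the other 8 fell in introns, an exon and intergenic DNA, and in promoters of unnamed transcripts. The DHS at chr9:64227915-64228060, in the promoter window of the predicted transcript Gm48855, stood at 4.10, 4.01 and 3.85 in Ikaros and at 2.73, -0.01 and -0.01 in control (3.08 ± 0.70, adjusted p = 0.0307). An intron DHS of Sgms1, which encodes a sphingomyelin synthase, stood at 4.45, 4.51 and 3.75 against 1.02, 2.05 and 2.61 (2.34 ± 0.40, adjusted p = 0.00388). The promoter DHS of Gm37322 on chromosome 15, near the integrin gene Itga5, stood at 4.61, 4.61 and 4.72 against 1.98, 3.23 and 2.12 (2.20 ± 0.35, adjusted p = 0.00194). In these 3 the Ikaros libraries lay between 3.75 and 4.72, and the control libraries were lower and more scattered. Differences of like size were in an intron of Kcnd2, a potassium channel gene (2.20 ± 0.40), in an exon of Il16, a cytokine gene (2.36 ± 0.56), and in the intergenic DHS nearest to Ywhah, a 14-3-3 protein gene (2.33 ± 0.54), and nearest to Msgn1 (2.39 ± 0.49). At Il16, near Ywhah and near Msgn1 control replicate 6 stood alone at -0.17, -0.30 and -0.46 while the other control libraries lay between 2.13 and 3.31. Without control replicate 6, 3 of these 8 calls passed. The intron DHS of Anks1b was the faintest, at 2.69, 2.99 and 3.41 in Ikaros and 0.77, 1.77 and -0.19 in control (2.24 ± 0.42, adjusted p = 0.00785). In fits without Ikaros replicate 4, 5 or 6, 3, 4 and 3 of the 8 passed, and with trends removed 4 did. The Il16 call was lost with the replicate block (adjusted p = 0.0508, limma).

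**Figure D3:**
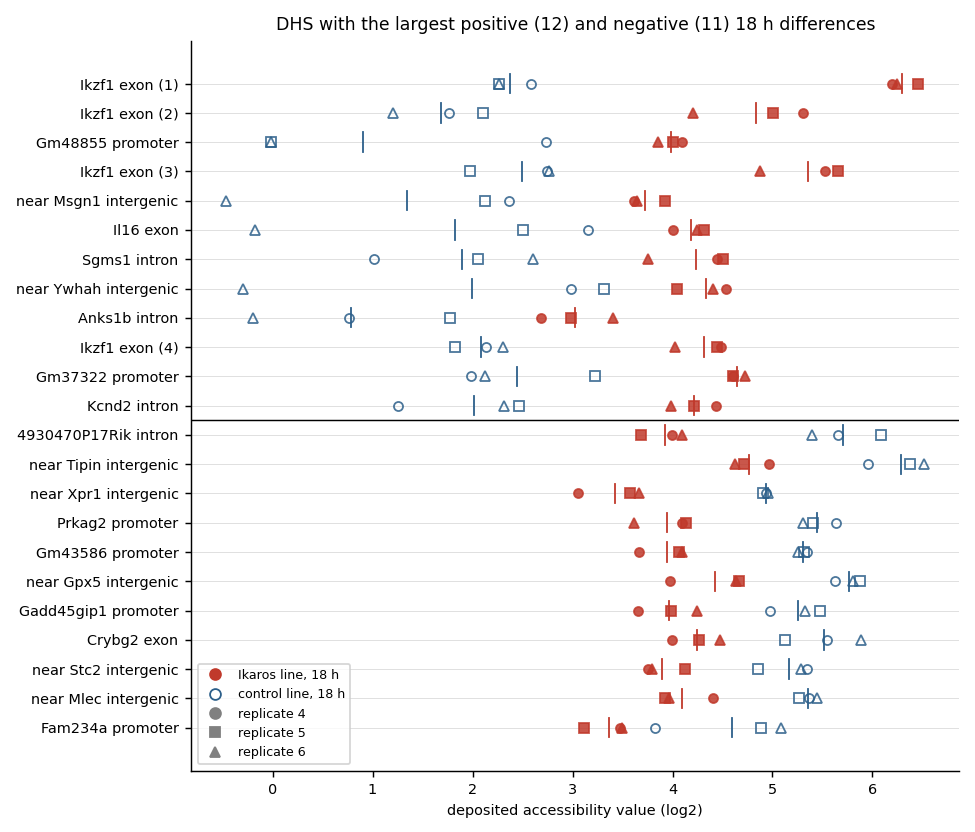
Deposited value (horizontal axis, log2) of each 18 h library at the 12 DHS with the largest positive difference, above the line, and at 11 of the 12 with the largest negative difference, below it; filled red symbols are Ikaros, open blue symbols control, shapes replicates and vertical bars means of 3, and the Ikzf1 exon DHS are numbered here by the size of their difference. Control values reach down to -0.46 above the line, and lie between 3.83 and 6.52 below it, where Ikaros values lie between 3.05 and 4.96.

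The 12 largest negative differences were smaller and tighter. The largest was an intron DHS of 4930470P17Rik on chromosome 2, at 3.99, 3.69 and 4.10 in Ikaros and 5.65, 6.08 and 5.39 in control (-1.78 ± 0.24, adjusted p = 0.000168). An intergenic DHS 3630 bp from the start of Tipin, a gene for a replication fork protein, stood at 4.96, 4.71 and 4.62 against 5.96, 6.37 and 6.52 (-1.52 ± 0.35, adjusted p = 0.0316). A DHS nearest to Xpr1, a phosphate exporter gene, stood at 3.05, 3.57 and 3.66 against 4.94, 4.91 and 4.96 (-1.51 ± 0.27, adjusted p = 0.00509). Within each of these the lines were separated by at least the width of either group. Promoter DHS among the 12 were those of Prkag2, a regulatory subunit of AMP-activated protein kinase (-1.50 ± 0.35), of Gadd45gip1, a mitochondrial ribosome protein (-1.30 ± 0.26), of Fam234a (-1.24 ± 0.30, and adjusted p = 0.0576 with the replicate block) and of the predicted transcript Gm43586 (-1.36 ± 0.27). Others lay near Gpx5 (-1.34), Stc2 (-1.27) and Mlec (-1.26) and in an exon of Crybg2 (-1.28). Leaving out Ikaros replicate 4, 5 or 6 left 2, 4 and 7 of the 12 past the threshold, and leaving out control replicate 4, 5 or 6 left 9, 8 and 7. The other sequences of the 3 largest differences on each side show what the letters hold, with matches to the Ikaros core (TGGGAA) or to the Runx letters (TGTGGT), on either strand, in capitals where present:
Gm48855 promoter, chr9:64227915-64228060: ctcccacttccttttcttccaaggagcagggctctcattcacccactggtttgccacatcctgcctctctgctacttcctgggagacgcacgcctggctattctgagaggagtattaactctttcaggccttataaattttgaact
4930470P17Rik intron, chr2:170583305-170583435: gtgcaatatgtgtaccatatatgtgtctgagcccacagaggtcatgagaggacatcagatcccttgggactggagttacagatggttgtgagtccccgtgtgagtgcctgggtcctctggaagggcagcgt
near Tipin, chr9:64277832-64277973: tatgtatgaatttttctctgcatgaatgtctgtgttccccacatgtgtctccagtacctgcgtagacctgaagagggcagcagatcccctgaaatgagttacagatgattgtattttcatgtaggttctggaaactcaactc
near Xpr1, chr1:155472723-155472853: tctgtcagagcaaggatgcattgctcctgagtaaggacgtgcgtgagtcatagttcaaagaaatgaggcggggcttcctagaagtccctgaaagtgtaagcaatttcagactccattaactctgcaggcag
None of these 4 held a match to either set of letters.

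The location of the called DHS differed by direction. Of the 264 higher DHS, 31 (11.7%) were promoter DHS, 115 (43.6%) lay in introns and 99 (37.5%) between genes, against 25.9%, 35.4% and 32.9% of all DHS. The 105 lower DHS held 27 promoter DHS (25.7%), 28 in introns (26.7%) and 43 between genes (41.0%). Median GC content was 46.2% in the higher DHS, 52.1% in the lower and 50.0% in all. Over all 13657 promoter DHS, 58 were called (0.425%) and the median difference was -0.03. Promoters of named genes among the higher DHS, given after their values were seen, included Cd36, a fatty acid transporter (1.90), Cd47, a cell surface signal against engulfment (1.73), Nlrp3, an inflammasome sensor (1.15), Slc30a5, a zinc transporter (1.15), and Satb1, a chromatin organiser of lymphocytes (0.99). With the replicate block the calls of Nlrp3 (adjusted p = 0.0522, limma) and Satb1 (adjusted p = 0.0639) were lost. Among the lower promoters were Hist1h4j, a histone gene with near-identical copies (-1.17), Faap20 of the Fanconi anaemia pathway (-0.97), and Zmpste24, the prelamin protease (-0.61).

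Runx factors, among them Runx1, are partners of the B cell programme and bind the letters TGTGGT. These letters, on either strand, were in 138 of the 264 higher DHS (52.3%), in 32 of the 105 lower DHS (30.5%) and in 28.4% of all DHS. Since wider DHS hold more letters, shares were also taken by width. Among DHS of at most 200 bp the share was 36.1% in higher, 20.9% in lower and 19.1% in all DHS, above that and up to 520 bp it was 61.5%, 28.6% and 37.0%, and above 520 bp it was 70.1%, 44.1% and 35.6%. Outside promoters the share was 51.9% of the 233 higher DHS and 30.6% of all. Above 520 bp and outside promoters it was 72.4% of higher, 46.2% of lower and 53.3% of all DHS, a narrower gap than with promoters included. The Ikaros core TGGGAA was in 27.3% of higher, 30.5% of lower and 26.7% of all DHS. By width its shares were 5.88%, 14.0% and 12.4% up to 200 bp, 48.7%, 42.9% and 37.8% above that and up to 520 bp, and 40.3%, 41.2% and 40.8% in wider DHS. Fewer of the higher DHS held the Ets letters CCGGAA (6.82% against 12.7% of all) and the CTCF letters AGGGGGC (7.58% against 14.5%). Ets letters are common in promoters, and outside promoters their share was 5.15% of higher and 5.65% of all DHS, while that of the CTCF letters was 7.30% and 12.6%. Shares were closer to those of all DHS for PU.1 (GAGGAA, 39.0% of higher against 34.4%), Foxo (TGTTTAC, 3.79% against 4.16%), the Myc E-box (CACGTG, 7.20% against 7.70%), the E2A E-box (CAGGTG, 27.3% against 24.2%), Ebf1 (CCCNNGGG, 20.5% against 17.5%) and AP-1 (TGANTCA, 12.1% against 9.80%). Outside promoters the shares of higher and of all DHS were 37.3% and 32.9% for PU.1, 3.86% and 4.27% for Foxo and 7.30% and 5.64% for the Myc E-box. They were 27.9% and 22.9% for the E2A E-box, 20.2% and 14.4% for Ebf1 and 12.0% and 10.5% for AP-1. The Ikaros core was there in 27.9% of higher, 34.6% of the 78 lower and 25.4% of all DHS. The Ets, PU.1 and Ikaros letters share GGAA and can overlap.

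Among the 18308 DHS outside promoters and wider than 200 bp, the share called higher was 0.410% with no Runx match, 0.863% with 1, 1.25% with 2 and 3.06% with 3 or more. Their median differences were 0.00, 0.04, 0.07 and 0.09 at 18 h, and their median GC contents were alike, between 46.6% and 46.9%. In the same order the medians were -0.18, -0.13, -0.07 and -0.03 at 0 h, before the drug, and 0.05, 0.07, 0.10 and 0.14 at 24 h. The steps between the match counts were thus at least as wide at 0 h as at 18 h, and small beside the differences of the called DHS. The Runx share of the higher calls was 56.6% of 143 with trends removed, 53.5% of 202 with the replicate block and 63.6% of 11 with only the 18 h libraries, but 43.0% of 1072 with a spread per group, 46.0% of 137 without control replicate 4 and 43.5% of 23 without replicate 4 of both lines. A match is a description of the letters and not a binding site. Sequences of 3 higher DHS that hold Runx letters are shown with Runx and Ikaros matches in capitals, the first from the Klrd1 promoter DHS, the second from the intergenic DHS nearest to Klra1 and the third from an intron of Pan3 beside Flt3:
Klrd1 promoter, chr6:129591473-129591772: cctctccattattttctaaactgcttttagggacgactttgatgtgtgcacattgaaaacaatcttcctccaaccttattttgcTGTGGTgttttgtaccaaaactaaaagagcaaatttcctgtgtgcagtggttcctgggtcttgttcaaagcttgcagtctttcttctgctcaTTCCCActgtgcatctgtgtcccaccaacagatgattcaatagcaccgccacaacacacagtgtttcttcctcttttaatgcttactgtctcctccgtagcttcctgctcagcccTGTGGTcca
near Klra1, chr6:130538505-130538696: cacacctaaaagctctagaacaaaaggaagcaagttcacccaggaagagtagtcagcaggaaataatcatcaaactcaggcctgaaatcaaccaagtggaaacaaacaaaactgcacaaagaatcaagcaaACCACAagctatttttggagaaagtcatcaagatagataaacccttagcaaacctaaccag
Pan3 intron, chr5:147527864-147528163: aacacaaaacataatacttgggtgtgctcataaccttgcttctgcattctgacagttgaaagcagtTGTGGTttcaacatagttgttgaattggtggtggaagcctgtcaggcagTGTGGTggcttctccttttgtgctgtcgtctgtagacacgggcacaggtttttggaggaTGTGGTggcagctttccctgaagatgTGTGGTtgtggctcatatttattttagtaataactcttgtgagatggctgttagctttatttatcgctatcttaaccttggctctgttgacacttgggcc
The Pan3 stretch held 4 Runx matches and no Ikaros core, and the Klrd1 stretch held 2 Runx matches and 1 Ikaros core.

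**Figure D4:**
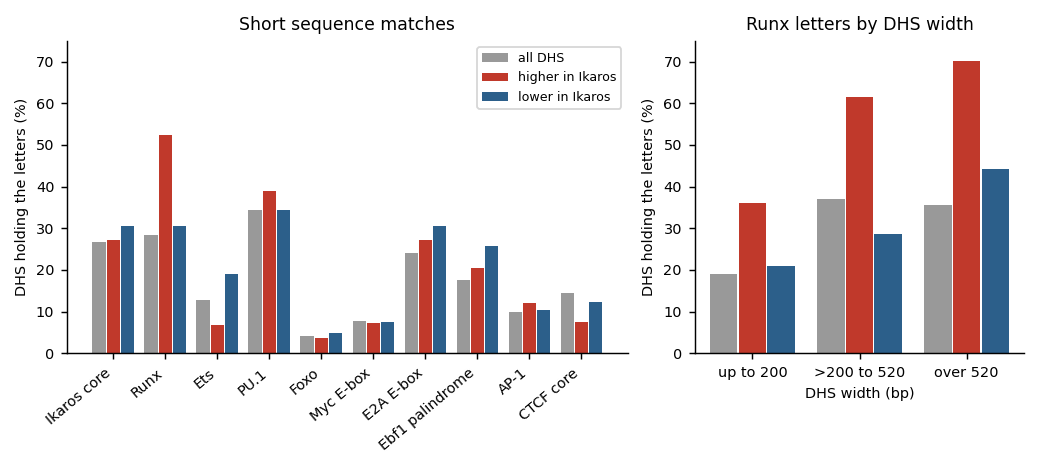
Percent of DHS holding each short set of letters on either strand (left) and the Runx letters by DHS width (right), for all DHS (grey), the 264 higher in Ikaros (red) and the 105 lower in Ikaros (blue). The Runx bars stand out among the 10 motifs, at 52.3% of higher DHS against 28.4% of all, and the higher share stays above that of all DHS in each width class. Promoter DHS are included, and above 520 bp outside promoters the Runx shares were 72.4% of higher and 53.3% of all.

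Some called DHS lay close together. Chained over gaps of at most 200000 bp, 39 of the higher DHS formed 10 clusters of 3 or more and 17 of the lower DHS formed 5. On chromosome 15, 5 of the 15 DHS between 103305077 and 103402620 were higher, and all 15 estimates were above 0. They flank Itga5, the fibronectin receptor subunit, and Gpr84, a fatty acid receptor of myeloid cells, and the intron DHS of Itga5 stood at 4.73, 4.27 and 4.81 in Ikaros and 2.01, 3.44 and 3.16 in control (1.73 ± 0.31, limma, adjusted p = 0.00509). On chromosome 9, 3 of 18 DHS between 32425408 and 32617655 were higher by 1.04 to 1.86, with 12 of the 18 above 0. The one in an intron of Fli1, an Ets family gene, stood at 4.84, 5.04 and 4.97 against 3.05, 2.92 and 3.28. Those at Gm47680 differed by 1.64 and 1.04. On chromosome 5 an exon DHS of Flt3, the cytokine receptor of early progenitors, stood at 5.03, 4.80 and 4.88 against 3.33, 3.48 and 3.82 (1.36 ± 0.18), and 14 of the 16 DHS between it and the Pan3 intron were above 0. Further clusters of higher DHS lay in introns of Tmtc1 (4 of 6 DHS, 1.48 to 1.88), in Mgat5, an N-glycan branching enzyme (3 of 8, 1.28 to 2.09), near Serp2 (3 of 9) and beside the pseudogene Anapc15-ps (6 of 10), and in these clusters every estimate was above 0. At Ebf1 3 of 10 DHS were higher, but only 4 of the 10 were above 0, with a median of -0.12. The clusters were formed from the calls, so these tallies are descriptions, and with the replicate block the Pan3 intron call was lost (adjusted p = 0.0625, limma).

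The natural killer cell receptor genes of chromosome 6, which encode lectin-like receptors, held further higher DHS. Between 128604408 and 131020033 lie 89 DHS, of which 6 (6.74%) were higher, against 0.5% of all DHS, and 0 lower. In the region 66.3% of estimates were above 0 with a median of 0.31, against 52.9% of all DHS. The median level of these 89 was 3.66, in the second-lowest of the 4 level bins (3.54 to 3.95). Median differences over all DHS were 0.08 in that bin and 0.30 in the lowest. The Klrd1 promoter DHS stood at 3.84, 3.92 and 3.95 in Ikaros and 2.64, 3.03 and 3.16 in control (0.96 ± 0.23, adjusted p = 0.0370, limma). An intron DHS of Klri1 stood at 3.90, 4.04 and 3.84 against 1.37, 1.67 and 2.33 (2.14 ± 0.36, adjusted p = 0.00312). The Klra5 promoter DHS stood at 3.88, 3.48 and 3.59 against 2.51, 2.35 and 2.18 (1.30 ± 0.30). The other 3 lay near Klra7 (1.52) and at or near Klra1 (1.94 and 1.71). In all 6 the control libraries reached 3.17 at most, and the Ikaros means of 3.65 to 4.04 lay near the Ikaros median of 3.98 over all DHS, so these sites were weak in the control line at 18 h. Klra genes are near-identical copies. The alignment options listed in the methods keep reads with a single best alignment, so reads shared between copies may be lost. The region was picked after its values were seen, 2 of the 6 calls passed with Ikaros replicate 4 or 6 left out and 1 with Ikaros replicate 5 left out, 2 without any 1 of the control libraries, 1 with trends removed and 4 with the replicate block, which lost Klrd1 (adjusted p = 0.0555) and Klra5 (adjusted p = 0.0508).

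The clusters of lower DHS lay among strong sites. On chromosome 11, 5 of 20 DHS between 69037725 and 69124398 were lower, the weakest with a difference of -0.79, and 18 of the 20 were below 0. They include a DHS nearest to Aurkb, a mitotic kinase gene, at 5.13, 5.71 and 5.38 in Ikaros and 6.25, 6.48 and 6.13 in control. On chromosome 4, 2 DHS near Ski, a repressor of TGF-beta signalling, and the Faap20 promoter DHS differed by -1.01 to -0.97, the last at 5.60, 5.46 and 5.53 against 6.39, 6.55 and 6.57. Further clusters lay at Btn1a1 beside histone and transfer RNA genes of chromosome 13 (3 of 8 DHS, 7 of them below 0), at Trim27 and Gpx5 (3 of 9, 5 below 0) and at Fance (3 of 16, 10 below 0). In these 5 clusters the control means of the called DHS lay between 4.91 and 6.50, all above the 3.96 median of control values over all DHS.

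Promoters of genes tied to Ikaros biology were called about as often as DHS in general. Lists of 14 functions held 279 promoter DHS, of which 2 (0.717%) were called, against 0.699% of all DHS and 0.425% of promoter DHS. Both were lower, where 0.199% of all DHS were called. Of the 279, 180 were below 0 with a median of -0.12, and 24.0% did not overlap between the lines against 23.2% of all DHS. The called members were Cish, a STAT5 target that dampens cytokine signalling, and Slc3a2, the heavy chain of the CD98 amino acid transporter. The Cish promoter DHS stood at 4.21, 4.39 and 4.01 in Ikaros and 4.95, 4.69 and 5.05 in control (-0.70 ± 0.15, limma, adjusted p = 0.0258). The Slc3a2 promoter DHS stood at 4.98, 5.23 and 4.85 against 5.78, 6.22 and 6.00 (-0.98 ± 0.20, adjusted p = 0.0125). In both, each Ikaros value lay below each control value. The Cish call was lost without Ikaros replicate 4 or 6 or control replicate 4 or 6, and the Slc3a2 call without Ikaros replicate 4 or 6 or control replicate 5. Slc7a5, the light chain that pairs with Slc3a2, had an intron DHS that was lower, at 4.44, 4.22 and 4.42 against 4.82, 5.07 and 5.05 (-0.62 ± 0.14, adjusted p = 0.0246), while its promoter DHS differed by -0.26 and did not pass.

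Glycolysis and growth genes had the lowest medians. Of the 25 promoter DHS of glycolysis genes 21 were below 0 and 0 passed, with a median of -0.31, and 11 did not overlap between the lines, all 11 lower in Ikaros, where groups did not overlap in 23.2% of all DHS and 20.7% of promoter DHS. The extremes were Hk1, a hexokinase gene, at -0.68 and Slc2a1, the glucose transporter GLUT1 gene, whose promoter DHS stood at -0.60 and 0.32. The Slc2a1 DHS at -0.60 stood at 4.81, 4.81 and 4.58 in Ikaros and 5.26, 5.31 and 5.41 in control (adjusted p = 0.130, limma). The median batch differences of the list were -0.23, -0.29 and -0.43. For the Myc network and growth list 24 of 28 promoter DHS were below 0 and 1 passed, Slc3a2, with a median of -0.26, and 11 did not overlap, all 11 lower. Its extremes were Mxd3, a Myc antagonist gene, at -1.03 (adjusted p = 0.133), and Npm1, the nucleophosmin gene, at 0.27. Medians of strong DHS were below 0 in general, at -0.13 in the highest of the 4 level bins and -0.03 over all promoter DHS. With trends removed the medians were -0.21 for glycolysis and -0.11 for growth, and with quantile normalization -0.17 and -0.08.

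The other lists lay nearer 0. For DNA replication 23 of 29 promoter DHS were below 0 with a median of -0.13, between Pold1, a DNA polymerase gene, at -0.91 and Pola1, a primase-polymerase subunit gene, at 0.79, but that median was 0.05 with trends removed. For cyclins, kinases and division genes 19 of 29 were below 0 with a median of -0.12, between Ccnd2 at -0.67 and Ccnd3 at 0.60, both D-type cyclin genes. For interleukin 7 and PI3K signalling 15 of 25 were below 0, between Cish and Stat5b at 0.62. Cell-cycle inhibitors were divided, with 5 of 10 on each side of 0, between Cdkn2a at -0.48 and Rb1 at 0.72. For Foxo and quiescence genes 11 of 20 were above 0, between Tsc22d3 at -0.44 and Foxo1 at 0.28. None of these members other than Cish passed. The Bcl2 family ran from Bcl2l1 at -0.94 to Bcl2 at 0.35 with 9 of 17 below 0, adhesion genes from S1pr1 at -0.80 to Itgal at 0.65 with 8 of 15 below 0, and NuRD and partner genes from Suz12 at -0.39 to Mta1 at 0.67 with 11 of 20 below 0.

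B cell genes were spread on both sides without a call at a promoter. For surrogate light chain and pre-B receptor signalling 11 of 18 promoter DHS were below 0 with a median of -0.10, between Vpreb2 at -0.65 and Cd22, an inhibitory receptor gene, at 0.63. For B-lineage transcription factors 20 of 33 were below 0 with a median of -0.09, between Pax5, the B cell identity factor gene, at -0.70 (adjusted p = 0.0822, limma) and Bach2 at 1.03. For recombination and end joining 5 of 10 were below 0, between Xrcc5 at -0.47 and Lig4 at 0.82, with Rag1 at 0.75. Inside genes of the 14 lists and outside promoters lay 377 DHS, of which 6 passed (1.59% against 0.699% of all DHS), all in introns and named after their values were seen: those of Ebf1, a B-lineage factor (0.63), Dntt, which encodes terminal transferase (0.95), Itga5, Cd44, an adhesion receptor (1.88), Smarca4, a remodeller subunit (0.74), and Slc7a5. The Ebf1 DHS stood at 5.78, 5.81 and 5.55 in Ikaros and 4.82, 5.32 and 5.10 in control, and the Dntt DHS at 4.06, 4.12 and 4.12 against 3.33, 2.94 and 3.17. Neither pair of groups overlapped.

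The genes the study used as RT-PCR markers of the response, namely Foxo1, Lig4, Igll1, Myc, Hk2, Ldha and Slc7a5, held 11 promoter DHS and none passed. Of all promoter DHS 0.425% passed, so 11 are too few for this count to tell much. Igll1, which encodes the lambda5 surrogate light chain, came nearest, at 4.95, 4.80 and 4.87 in Ikaros and 5.41, 5.38 and 5.41 in control (-0.52 ± 0.20, limma, adjusted p = 0.245). Its lines did not overlap, which was so for 23.2% of all DHS. Myc stood at 4.50, 4.64 and 4.63 against 4.54, 5.14 and 4.83 (-0.24 ± 0.14, adjusted p = 0.501), with the 2 highest values in control. The 2 Hk2 DHS differed by -0.33 and 0.03, the 2 Ldha DHS by -0.32 and -0.13, Foxo1 by 0.28, and the 3 Lig4 DHS by 0.82, 0.04 and -0.10.

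The lines already differed at the DHS called at 18 h at other times. The median difference of the 264 higher DHS was 0.52 before the drug, then 0.66, 0.82 and 0.85 after 2, 6 and 12 h, 1.37 after 18 h and 1.04 after 24 h, and that of the 105 lower DHS over the same times was -0.19, -0.54, -0.63, -0.71, -0.92 and -0.82. Since the DHS were chosen at 18 h, the height of that point is a description. Of the 369 estimates 368 had the same sign after 24 h, and 366, 364 and 356 after 12, 6 and 2 h, but 281 in the 0 h cells. Of the 369 calls 198 (53.7%) were also called at 24 h, where 1.33% of all DHS passed, which is 28.3% of the calls at 24 h. At 12 h 127 were shared (34.4% of the 18 h calls and 18.3% of those at 12 h, where 1.31% passed), at 6 h 97 (0.578% passed) and at 2 h 30 (0.195% passed), all with the same sign. At 0 h 12.9% of all DHS were called, and 99 of the 369 were among them, 97 with the same sign. At no other time were 124 of the 369 called, 102 higher and 22 lower. The libraries of these times are separate, but the authors' correction left the 12 group means with 6 of 11 possible dimensions, so values at different times are not independent.

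Tests of the change itself gave no calls after the drug. The line difference changed between 2 h and 18 h, between 12 h and 18 h and between 18 h and 24 h in 0 DHS each (limma, 0% of 52788). At an unadjusted p under 0.05 were 1631, 745 and 78 (3.09%, 1.41% and 0.148%). These shares lie below the 0.05 that tests of unrelated values would give. The group means hold 6 of 11 possible dimensions and are not independent between times, so 0 calls do not show that the difference was stable. From 0 h to 18 h, a contrast added after the data were seen, it changed in 312 DHS (0.591%), of which 32 were among the 369, 18 rising and 14 falling. Among the 24 DHS of the largest differences these were the intron DHS of Sgms1, whose difference went from -0.25 at 0 h to 2.34, that of Anks1b, from -0.22 to 2.24, and the DHS near Gpx5, from 0.37 to -1.34. It also passed at 2 DHS named after their values were seen, the DHS nearest to Aurkb, from 0.23 to -0.88, and the Hist1h4j promoter DHS, from 0.65 to -1.17.

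**Figure D5:**
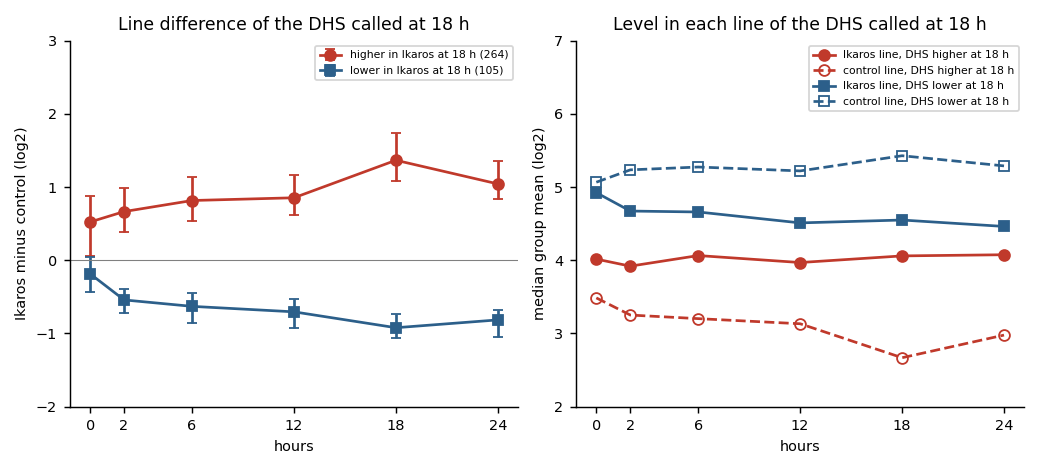
Left, median difference between Ikaros and control (vertical axis, log2; bars span the quartiles over DHS) against hours for the DHS called at 18 h; right, median over the same DHS of the group mean in each line (solid Ikaros, dashed control), red for the 264 higher and blue for the 105 lower. In the higher DHS the Ikaros medians stay between 3.92 and 4.07 while those of control go from 3.49 at 0 h to 2.67 at 18 h and 2.98 at 24 h. The DHS were chosen by their 18 h values.

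Seen line by line, the Ikaros line changed in 0 DHS between 2 h and 18 h (limma, 0% called, and 0 at an unadjusted p under 0.05), whereas the control line changed in 76 (0.144%), 52 up and 24 down. Over the 264 higher DHS the median change from 2 h to 18 h was 0.13 in Ikaros and -0.49 in control, and 237 of the 264 changes were below 0 in control. Over the 105 lower DHS it was -0.13 in Ikaros and 0.23 in control. The median change was larger in control than in Ikaros in both sets, but few of these changes passed, with 10 of the 264 and 1 of the 105 called in control. Both sets were chosen by their 18 h values, so extreme 18 h levels are in part a result of that choice. Control medians went from 2.67 at 18 h to 2.98 at 24 h in the higher set and from 5.43 to 5.29 in the lower. The control count was 47 with the replicate block, 3 without control 18 h replicate 4, 367 without control 2 h replicate 5, 297 without control 2 h replicate 6 and 0 with only the control groups compared in the fit. An absence of any unadjusted p under 0.05 among 52788 tests is below the share a test of unrelated values would give. That count was 9 with only the Ikaros groups compared in the fit and 2 with a spread per group. The part of the reduced dimensions of the group means and of the shared spread in this was not tested.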

How the data were processed

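The authors, as the methods state, trimmed reads, aligned them with Bowtie2 to mm10, called peaks with HOMER, merged peaks found in all replicates of a group, counted reads with bedtools, scaled them by RPKM and TMM and corrected them with ARSyN, a model of groups and structured noise. The deposited values are log2. The base was settled from the values, whose sums over DHS would be 369486 to 432755 RPM in base 2 and an impossible 1575615 to 2338641 RPM in base e. The authors state only a minimum depth, so no counting error is given.

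Here DHS were tested with limma 3.58.1 (R 4.3.3; 12 group means, all 36 libraries, intensity trend, two-sided, Benjamini-Hochberg over 52788 DHS, threshold 0.05). On simulated data for this comparison it recovered 38 of 100 DHS changed by a log2 of 1 and 79 of 100 changed by 2, with 6 false calls. The simulated noise was independent, with the same spread in all 12 groups and no other group differences. In the deposited values spread was unequal, with fitted weights (higher for less spread) of 0.867 in control and 1.756 in Ikaros at 18 h. How far these rates hold there was not tested. DHS were placed with GENCODE vM21 basic. Whether file starts count from 0 or 1 is not given in the sources used here. Sequences came from the GRCm38.p6 RefSeq assembly, with stretches in untranslated regions left out.

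DHS named in the text were the 12 largest positive and 12 largest negative differences among calls whose groups do not overlap, called promoter DHS of 18 gene lists (246 genes), promoter DHS of the marker genes, DHS in Ikzf1, and the extremes of each list. Of these, 1 DHS is not reported here. Other promoters, clusters, Klr genes, DHS inside listed genes and those of the closing section were named after their values were seen. Members and lists were chosen with earlier results of these data known. The replicate numbers mark batches per the labels, so the fit with the replicate block is a paired one. Same-numbered 18 h libraries deviated from their group means with correlations of -0.12, -0.05 and -0.07. Per the methods each batch was a repeat of the time course, made to give biological replicates. Alternatives left out libraries or groups, rescaled values, removed trends with level, GC and width, or changed the spread estimate.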

Additional observations from a re-analysis of the deposited data

Results flagged for a closer look

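At 3 of the 24 DHS of the largest differences and at 2 named after their values were seen the line difference at 18 h differed from that at 0 h by a test of the change itself (limma, adjusted over all DHS, a contrast added after the data were seen). It rose by 2.60 at the Sgms1 intron DHS (adjusted p = 0.0408) and by 2.47 at the Anks1b intron DHS (adjusted p = 0.0484), and at the DHS near Gpx5 it changed by -1.71 (adjusted p = 0.0310), at the DHS nearest to Aurkb by -1.12 (adjusted p = 0.0495) and at the Hist1h4j promoter DHS by -1.82 (adjusted p = 0.0373). The 0 h cells were collected separately per the methods, so collection and drug cannot be told apart in this contrast. Groups of 3 libraries are too small for the check for single stray samples.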

How the results depend on the processing

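Against 369 DHS called at 18 h, 29 passed with only the groups of the contrast fitted, 1 with the replicate block added to that fit (chosen after seeing the data), 576 without the 0 h libraries, 178 with quantile normalization, 199 with trends removed, 1618 with a spread per group and 215 with the lowest of the 4 level bins left out, and between 5 and 289 with libraries left out. With the replicate block in the whole fit 285 passed, 281 of them among the 369, with median centring 316 and without an intensity trend 462. All 369 estimates kept their sign in every fit, 235 of them being tested where that bin was left out. This is a description and not a test. In 263 of the 264 higher and all 105 lower DHS the groups did not overlap, so leaving out libraries could not turn the sign. The replicate block left the estimates as they were. The share of higher calls was 264 of 369, but 120 of 215 with the lowest bin left out and 11 of 29 with only the 18 h groups. The change of the line difference from 2 h to 18 h gave 0 to 18 calls with libraries left out, and 0 otherwise. From 12 h to 18 h it gave 1 with only the groups of the contrast and 0 to 1 with libraries left out. The change from 18 h to 24 h and the Ikaros line gave 0 in every fit. The control line's 76 calls between 2 h and 18 h became 47 with the replicate block, 0 with only the groups of the contrast, 116 without the 0 h libraries, 2 with quantile normalization, 0 with a spread per group and 3 to 367 with libraries left out. The causes of these shifts were not tested. The share of promoter DHS among higher calls was 11.7%, and 7.20% or 17.4% with windows of 500 bp or 2000 bp. The replicate block lost 88 of the 369 calls, among them those of Il16, Fam234a, Ikzf1 exon DHS 1, Klrd1, Klra5, Nlrp3, Satb1, the Pan3 intron, Ralb and Btnl2, and of the 24 DHS of the largest differences it lost no other. List medians changed sign in at least 1 fit for 11 of 17 lists, among them B-lineage factors (-0.11 to 0.08) and myeloid and erythroid markers (-0.26 to 0.54). They stayed below 0 for glycolysis (-0.34 to -0.17), growth (-0.36 to -0.08), interleukin 7 and PI3K signalling (-0.25 to -0.03), cyclins (-0.24 to -0.01) and the response markers (-0.22 to -0.02), and above 0 for T cell markers (0.02 to 0.26). Depth per library is unknown, and 3 libraries a group limit what could be called.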

Other observations

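Among the DHS more accessible in Ikaros at 18 h, those with the most Runx letters (TGTGGT, either strand), picked after their values were seen, were as follows. The intergenic DHS nearest to Tlr4, the lipopolysaccharide receptor gene, held 6 matches and differed by 1.33, and the one nearest to Bcl6, a repressor gene of germinal centre and pre-B cells, held 4 and differed by 1.29. Intron DHS of Pan3 and of Ralb, a small GTPase gene, held 5 matches each and differed by 0.89 and 0.90. The strongest DHS among the calls was at Btnl2 on chromosome 17, with a difference of -0.51.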
